A study of Mus musculus with 31 samples.

Results

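The nuclear-encoded subunits of the mitochondrial respiratory chain and ATP synthase are described here, complex by complex. The RNA came from ribosome precipitates of mouse tissues that hold nociceptive neurons or their axons, and from control precipitates. The members are the 85 protein-coding genes, of 55536 genes in both count tables, whose symbol in the GENCODE M21 annotation names a complex I subunit (Nduf followed by a, b, c, s or v and a number), a succinate dehydrogenase subunit (Sdha to Sdhd), a Uqcr subunit, a Cox4 to Cox8 subunit or an Atp5 subunit. They divide into 37 genes of complex I, 4 of complex II, 8 of complex III, 18 of complex IV and 18 of complex V. Of these, 68 had at least 10 counts in all 31 libraries, and 2 had 0 counts in all 31: Cox8c, and the second of the genes named Atp5o. By gene name the rule also takes in Ndufa4, now regarded as a complex IV subunit, Cox7a2l, an assembly factor of supercomplexes, and Atp5s, a factor related to ATP synthase. It leaves out 6 listed chain components with other symbols, so sums and shares of the chain below cover the members only.

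The study isolated ribosomes carrying a tagged protein, a method called translating ribosome affinity purification, and sequenced the precipitated RNA. In Nav1.8-Cre;L10a-eGFP-fl/fl mice the Cre recombinase, driven from the gene of the sodium channel Nav1.8 (Scn10a), switches on the ribosomal protein L10a fused to eGFP in nociceptive and some other sensory neurons. L10a-eGFP-fl/fl mice without Cre were the negative control, so every library came from animals carrying the floxed tag and none was from an untagged strain. Batch 1 held central axons (lumbar dorsal root and spinal cord) and somas (lumbar dorsal root ganglia) with 4 Cre and 4 control libraries of each. Batch 2 held peripheral axons (sciatic nerve) with 4 Cre and 3 control libraries, and other ganglion somas with 4 Cre and 4 control libraries. The batch numbers are those of the labels, each batch has a count table of its own, and the 2 axon kinds were never in one batch. The labels call the libraries biological replicates and give no animal, age or pooling. If they were not separate animals, the p-values below measure only the spread between these samples.

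Complex I, the largest, takes electrons from NADH, and complex II takes them from succinate as part of the tricarboxylic acid cycle. Complexes III and IV pass the electrons on to oxygen, and complex V, the ATP synthase, makes ATP from the proton gradient that complexes I, III and IV build. Each complex has a catalytic core, whose large proteins bind the cofactors or substrates, and, complex II apart, a set of small accessory subunits. Most subunits are encoded in the nucleus, translated on cytosolic ribosomes and imported, and messenger RNAs of many of them have been found in axons. The core of complex II is wholly nuclear, while complexes I, III, IV and V also hold subunits encoded in mitochondrial DNA.

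Many members have retrotransposed copies in the genome that keep the coding sequence almost unchanged, and this bears on how well their reads can be counted. A search of the annotated transcripts at 95% identity or more over at least 150 bases found 37 pseudogenes that match 21 members. Cox7c, a small subunit of complex IV, is shown first because its counts split between the count tables (given further on). Its coding sequence of 192 bases with the stop codon was read from the GENCODE M21 transcripts on GRCm38, minus strand of chr13:86044816-86046904. It is identical to that of Gm12338 on chromosome 11, and it differs from Gm10012 on chromosome 17 at 2 bases, G30C and G107A, counted from the first base of the start codon with the base of Cox7c first. Capitals mark those bases.
Cox7c: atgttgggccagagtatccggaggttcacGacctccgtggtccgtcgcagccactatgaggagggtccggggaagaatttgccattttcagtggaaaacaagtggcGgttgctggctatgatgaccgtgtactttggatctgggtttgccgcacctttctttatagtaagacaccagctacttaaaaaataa
Gm10012: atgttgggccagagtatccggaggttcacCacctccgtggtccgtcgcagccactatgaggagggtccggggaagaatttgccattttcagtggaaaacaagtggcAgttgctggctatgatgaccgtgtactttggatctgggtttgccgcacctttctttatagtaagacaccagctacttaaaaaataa
Atp5g1 encodes a copy of the c-ring subunit of ATP synthase on the minus strand of chr11:96068852-96075670. Over 411 coding bases it differs from Gm10039, on the same chromosome, at 1 base, G385A. Bases 340 to 411 are shown with that base in capitals.
Atp5g1: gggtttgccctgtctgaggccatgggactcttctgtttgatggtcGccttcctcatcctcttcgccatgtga
Gm10039: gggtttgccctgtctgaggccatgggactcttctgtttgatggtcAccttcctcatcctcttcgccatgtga
Ndufb4, an accessory subunit of the membrane arm of complex I on the minus strand of chr16:37647170-37654453, has a copy, Ndufb4c on chromosome 15, that is identical over all 390 coding bases. The first 120 are shown in lower case because no base differs.
Ndufb4: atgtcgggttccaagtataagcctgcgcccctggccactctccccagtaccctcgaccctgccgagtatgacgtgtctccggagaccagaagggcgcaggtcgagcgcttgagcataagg
A short read from within these stretches cannot be assigned by sequence alone, or rests on 1 base, and how the counting treated such reads is not given in the sources used here.

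The members' promoters shared short motifs that were not part of how they were chosen. RefSeq promoter sequences on GRCm38.p6, from 250 bases before to 50 after each gene's start, were matched by gene identifier or symbol for 66 of the 85 members. CGCNTGCG, the central part of the sequence bound by nuclear respiratory factor 1, was read on both strands like the other motifs here. It was present in 25 of the 66 (37.9%) and in 9.22% of the promoters of 27025 genes. Its stricter form CGCATGCG, whose matches are all contained in the first, was in 13.6% of the members' promoters and 2.07% of all. CCGGAAG, a core sequence of ETS family factors, was in 24.2% and 9.93%, and AAGATGGCG, known from YY1 binding sites, in 10.6% and 1.64%. TATAAA was in 10.6% of the members' promoters and 15.7% of all. These are letter matches in a fixed window, not measured binding. One stretch of 100 bases is shown for a member of complexes I, II, IV and V each, 5′ to 3′ on the gene's strand, with the matches to CGCNTGCG on either strand in capitals. They come from chr17:56717662-56717761 on the plus strand (Ndufa11, the bases from 100 to 1 before the start) and, on the minus strand, from chr9:50603850-50603949 (Sdhd, 100 to 1 before), chr5:115349029-115349128 (Cox6a1, 170 to 71 before) and chr11:115419990-115420089 (Atp5h, 170 to 71 before).
Ndufa11: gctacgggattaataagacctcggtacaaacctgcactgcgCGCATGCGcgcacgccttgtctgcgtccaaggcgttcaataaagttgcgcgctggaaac
Sdhd: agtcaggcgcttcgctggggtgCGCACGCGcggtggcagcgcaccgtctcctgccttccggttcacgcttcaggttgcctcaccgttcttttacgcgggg
Cox6a1: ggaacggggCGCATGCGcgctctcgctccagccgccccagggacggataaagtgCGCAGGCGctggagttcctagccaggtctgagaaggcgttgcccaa
Atp5h: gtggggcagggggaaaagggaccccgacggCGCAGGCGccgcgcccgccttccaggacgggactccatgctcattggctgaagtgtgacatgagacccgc

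Libraries held 3601399 to 19637292 counts. Levels within a gene are given as CPM, a gene's counts per 1000000 counts of the library, and levels between genes as TPM, the same scale after each count is divided by the summed exon length of its gene. A floor of 3 counts per library corresponds to 0.153 to 0.833 CPM, and intervals or floors cover counting error only. Scn10a lay between 45.1 and 421 CPM in the central axon Cre libraries and between 0 and 29.9 in their controls, without overlap, but in the somas of batch 1 it ranged from 313 to 505 with Cre and from 33.4 to 625 without. In the peripheral axons Scn10a lay between 42.1 and 304 CPM with Cre and between 0 and 127 without. Control somas of batch 1 held 4934 to 7889 genes with 10 counts or more, against 12502 to 14015 in the Cre somas of that batch. Control library 3 of that group stood furthest apart, with a TMM scaling factor of 0.0547 in the fit of Cre against control. A further 2 control somas of batch 1 have columns of the same name and carry no replicate number.

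Per length, RNA of all 5 complexes in the Cre libraries lay within one order of magnitude at the median. The median TPM over the members of a complex, averaged over the 4 Cre somas of batch 1, was 668 ± 120 for complex I, 406 ± 167 for complex II, 1124 ± 270 for complex III, 359 ± 57.2 for complex IV and 447 ± 154 for complex V (SD, n = 4). Central axons with Cre had medians, in the same order, of 523 ± 76.9, 511 ± 23.9, 794 ± 11.6, 275 ± 62.8 and 435 ± 60.2. Complex III had the highest median in each of the 4 Cre groups. In the peripheral axon Cre libraries complex II had the lowest median, 180 ± 52.4 TPM, against 397 ± 84.9 in the Cre somas of batch 2.

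Within complex I, Ndufa2, an accessory subunit of the NADH-oxidising module, had the highest level in every Cre group, 4905 ± 2068 TPM in the somas of batch 1 and 1975 ± 713 in the central axons (SD, n = 4). Ndufs1, the largest core subunit, was among the lowest, at 24.6 ± 8.40 TPM in those somas and 47.3 ± 15.6 in those axons. In complex II the iron-sulfur subunit Sdhb led every Cre group, with 849 ± 141 TPM in the central axons and 313 ± 99.7 in the peripheral axons. In complex III the small subunits Uqcr10 and Uqcr11 led, and Uqcrc2, a core protein by name, was lowest in all 4 Cre groups, at 65.4 ± 31.3 TPM in the somas of batch 1. In complex IV, Cox6a1 and Cox6b1 led, with 6180 ± 1802 and 7061 ± 477 TPM in the somas of batch 1. In complex V, Atp5k, the small e subunit, led in both axon kinds, with 1784 ± 429 TPM in the central and 3663 ± 2816 in the peripheral axons.

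Several subunits exist as paralogues, one of them widely expressed and the other known from muscle, testis or low oxygen. In the Cre libraries the widely expressed copy held the higher level in each pair given here. Cox4i1 stood at 2210 ± 220 TPM in the somas of batch 1 and its paralogue Cox4i2 at 10.4 ± 7.07 (SD, n = 4). Cox6a1 stood at 4629 ± 441 TPM in the somas of batch 2 and the muscle form Cox6a2 at 4.09 ± 2.59. Cox8a had 3430 ± 435 TPM in those somas, Cox8b 0.628 ± 0.728 and Cox8c 0. Cox6b1 had 3519 ± 1006 TPM in the central axons and the testis form Cox6b2 59.3 ± 30.1. Cox7a2 had 1491 ± 433 TPM there and the muscle form Cox7a1 19.5 ± 3.65. Among the 3 c-ring genes of ATP synthase, which encode the same mature protein, Atp5g3 led in all 4 Cre groups, from 1211 ± 134 TPM in the peripheral axons to 2168 ± 233 in the somas of batch 1. Atp5g2 was lowest, between 3.26 ± 1.55 and 42.4 ± 6.40 TPM. Counts of Atp5g1 and Atp5g2 are uncertain, as given further on.

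**Figure D1:**
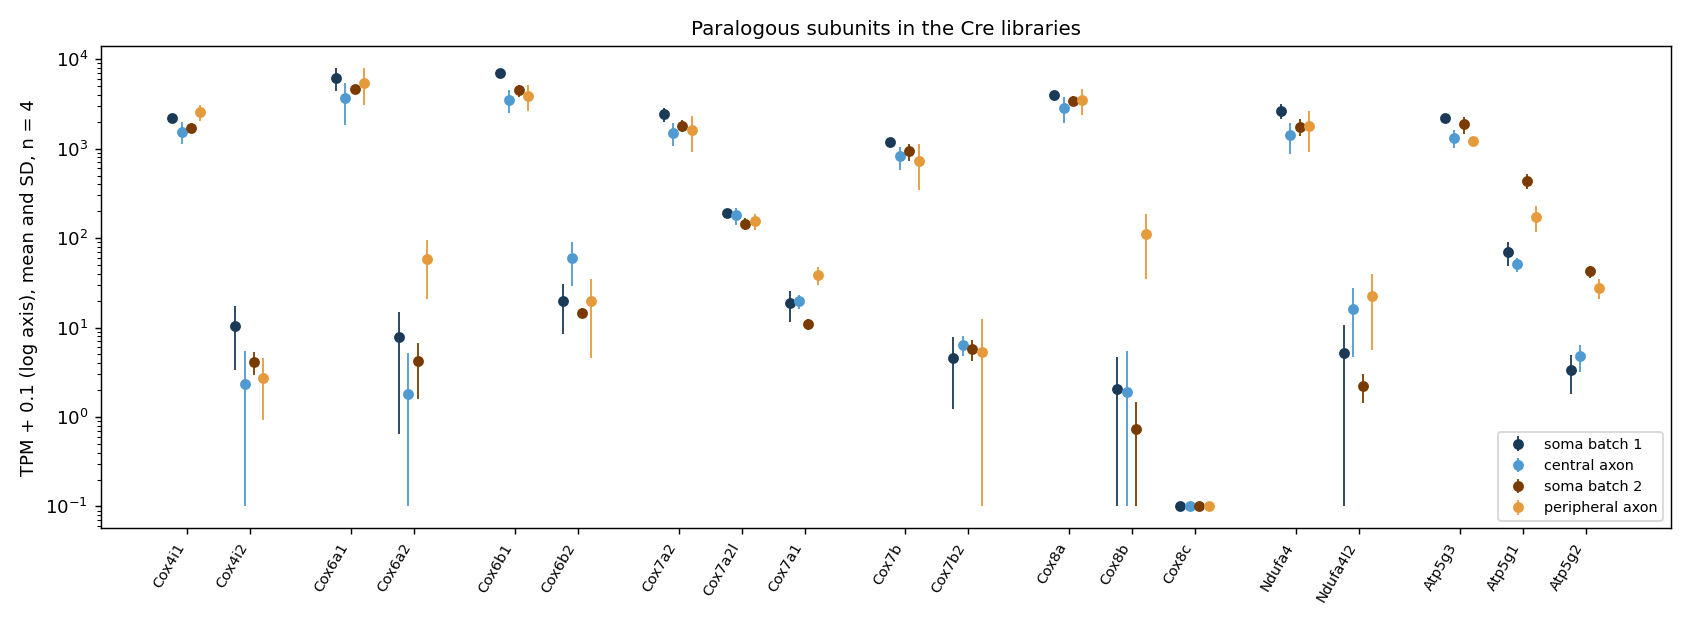
Levels of paralogous subunits in the 4 Cre groups, as TPM plus 0.1 on a log axis; each point is the mean of 4 libraries and each bar 1 SD. Cox4i1, Cox6a1, Cox8a, Cox7a2 and Atp5g3 lie above their paralogues in every group, and Cox6a2 and Cox8b are highest in the peripheral axons.

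As a share of the library, central axons held less of the chain than somas of the same batch, except for complex II. The summed CPM of all members was 34664, 28488, 23060 and 24365 in the 4 central axon Cre libraries and 44362, 42204, 55723 and 45242 in the 4 Cre somas. Every axon library lay below every soma library, and the mean fell to 0.590 of the soma mean. The sum of complex I was 9726 ± 1961 CPM in the axons and 17998 ± 2904 in the somas (SD, n = 4), a ratio of 0.540. Complex III had a ratio of 0.549, complex IV 0.505 and complex V 0.702, each without overlap between axon and soma libraries. Complex II had 1496 ± 122 CPM in the axons and 1408 ± 455 in the somas, a ratio of 1.06, and its libraries overlapped. Complex V took 26.9 to 32.3% of the chain's counts in the axons and 24.4 to 25.6% in the somas, without overlap.

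**Figure D2:**
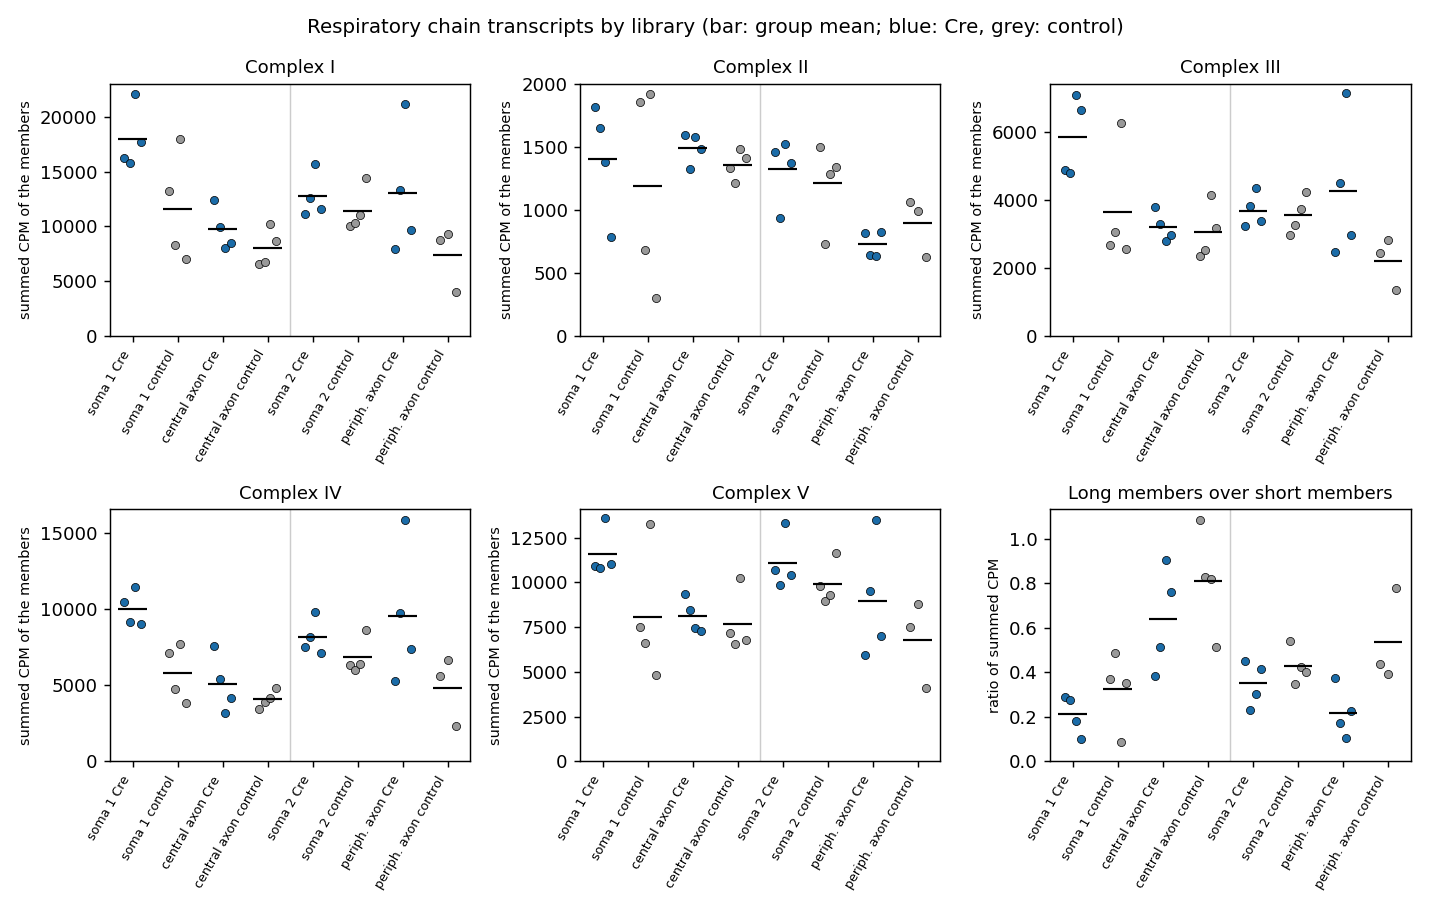
Summed CPM of the members of each complex, and the ratio of the summed CPM of long to short members, by library; each dot is a library, each horizontal bar a group mean, blue is Cre and grey is control. In the Cre libraries complexes I, III, IV and V are lower in central axons than in the somas of batch 1 without overlap, and complex II is lower in peripheral axons than in the somas of batch 2.

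In the fit of all genes, 41 of 82 members tested fell in central axons against somas and 0 rose, where 5.11% of all genes tested were called lower, 8.63% higher and 13.7% in either direction (edgeR's quasi-likelihood test, Benjamini-Hochberg adjusted p under 0.05, TMM scaling). The median log2 fold change was -1.21 over the members and 0.05 over all genes tested. By complex, 21 of 37 members of complex I fell (median -1.32), 0 of 4 of complex II (median -0.48), 5 of 8 of complex III (median -1.30), 8 of 16 of complex IV (median -1.26) and 7 of 17 of complex V (median -0.97). Leaving out one library at a time gave 15 to 51 members lower and 0 higher: 8 to 27 of complex I, 0 of complex II, 3 to 5 of complex III, 0 to 12 of complex IV and 4 to 10 of complex V. The 8 calls of complex IV fell to 0 without central axon Cre library 2 or library 3, to 1 without library 4, and to 2 without soma Cre library 1 or library 3. The medians of complex IV in these fits lay between -1.68 and -1.12. The count was 15 without central axon Cre library 2 or without library 3, 16 without library 4, 27 without soma Cre library 1 and 22 without soma Cre library 3. Scaled only by library size, 26 members fell and 1 rose, Uqcrc2, with a median of 0.50 over all genes and -0.78 over the members. A fit over all 4 groups of the batch, which shares the spread with the control libraries, called 0 members by edgeR's test and 15 of all 15355 genes tested. In bulk RNA of this kind, fewer cells or axons of a type and less RNA in each cannot be told apart.

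Ndufb3, an accessory subunit of the membrane arm of complex I (ENSMUSG00000026032, chr1:58586384-58595964, plus strand), had 241, 176, 134 and 129 CPM in the central axons and 442, 432, 602 and 935 in the somas. All axon values lay under all soma values. It fell by 2.23 on the log2 scale (SE 0.38, edgeR's adjusted p = 0.00329), the smallest p among the members. Ndufa5, an accessory subunit of the peripheral arm, had 388, 358, 232 and 289 CPM in the axons and 618, 684, 1159 and 1837 in the somas. Its groups did not overlap, with the soma values spread most widely, and it fell by 2.17 (SE 0.41, adjusted p = 0.00554). Ndufs5 fell by 1.75 (SE 0.34, adjusted p = 0.00675). Ndufb4 had 50.5, 43.2, 33.5 and 19.5 CPM against 61.1, 75.3, 140 and 118 and fell by 1.84 (SE 0.41, adjusted p = 0.0119), again without overlap.

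The large core subunits Ndufs1 and Ndufv1 of complex I did not pass the test in central axons. Ndufs1 had a log2 fold change of 0.15 (SE 0.30), and Ndufv1, which binds NADH and FMN, had -0.55 (SE 0.41). In complex II, Sdha, the flavoprotein that oxidises succinate, had 157, 258, 289 and 347 CPM in the axons and 174, 137, 60.3 and 155 in the somas, with 1 axon library within the soma range. Its log2 fold change was 0.54 (SE 0.34, edgeR's adjusted p = 0.311). Sdhb, Sdhc and Sdhd had -0.46 (SE 0.47), -0.51 (SE 0.27) and -0.56 (SE 0.36).

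In complex III all 5 short subunits fell, and the 3 long ones, Uqcrc1, Uqcrc2 and Uqcrfs1, did not pass the test. Uqcr11, a small accessory subunit, had 491, 388, 198 and 216 CPM in the axons and 752, 813, 1452 and 1219 in the somas, so all axon values were lower. It fell by 2.13 (SE 0.43, edgeR's adjusted p = 0.0078). Uqcrh, the hinge protein, fell by 1.86 (SE 0.40, adjusted p = 0.0108). Uqcrc1, a core protein by name, had 733, 671, 958 and 917 CPM in the axons and 832, 647, 481 and 172 in the somas, which overlap, and a log2 fold change of 0.15 (SE 0.43). Uqcrc2 had 109, 166, 179 and 215 CPM against 107, 77.4, 62.6 and 28.6, with every axon value above every soma value, though its log2 fold change of 0.80 (SE 0.38) did not pass the test (adjusted p = 0.184).

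In complex IV, Cox4i1 (ENSMUSG00000031818, chr8:120668222-120674207, plus strand), the regulatory subunit that marks mitochondria in many stains, had 1114, 896, 477 and 696 CPM in the central axons and 1369, 1242, 1740 and 1318 in the somas. The groups did not overlap and it fell by 1.26 (SE 0.38, edgeR's adjusted p = 0.0434). Cox6b1, which faces the intermembrane space, had 1273, 824, 616 and 607 CPM against 2083, 1818, 2350 and 2000 and fell by 1.73 (SE 0.39, adjusted p = 0.0137). All its axon values were lower than all its soma values. This held for 36 of 82 members (4.17% of all genes). Counting both directions, 39 members did not overlap (25.2% of all genes), and the 3 that were higher in all axon libraries were Atp5b, Ndufa10 and Uqcrc2. Of all 14480 genes tested, 3650 did not overlap and 604 of these were lower, so most of them were higher in every axon library.

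In complex V, Atp5k had 523, 384, 273 and 278 CPM in the central axons and 577, 710, 1428 and 2347 in the somas. The groups did not overlap, 2 soma libraries stood well above the others, and it fell by 2.19 (SE 0.48, edgeR's adjusted p = 0.0113). Atp5b, the catalytic beta subunit of the rotary head, had 1566, 1899, 1824 and 1978 CPM in the axons and 1274, 1242, 840 and 342 in the somas. Every axon value was higher, yet the log2 fold change of 0.51 (SE 0.41) did not pass the test (adjusted p = 0.444). Atp5a1, the alpha subunit, had a log2 fold change of 0.08 (SE 0.35).

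The members that fell in central axons were mostly short. Coding length (without the stop codon) was split after the values had been seen into short (450 bases or fewer, 50 members), medium (above 450 and up to 750 bases, 19 members) and long (above 750 bases, 16 members). The members nearest the limits are Ndufa12 (447) and Ndufb11 (453), and Ndufv2 (744) and Atp5f1 (768). All 16 long members belong to complexes I, II, III and V, and none to complex IV. In central axons 34 of 48 short members tested fell (median -1.46), 6 of 18 medium members (median -1.01) and 1 of 16 long members (median -0.02), Ndufv3, whose common transcript encodes a short protein. Leaving out one library gave 14 to 41 short, 1 to 11 medium and 0 to 1 long members lower, with 14 short and 1 medium without central axon Cre library 2 or library 3. The medians were -1.89 to -1.25 for short and -0.21 to 0.11 for long members in these fits. Other short protein-coding genes moved in the same direction, with 239 of 825 lower and a median of -0.83, while other long genes had a median of 0.21. Within complexes the division was alike: 16 of 20 short and 1 of 7 long members of complex I fell, and 5 of 5 short and 0 of 3 long members of complex III. Across the 82 members the Spearman correlation of fold change with coding length was 0.60, and across 13125 other protein-coding genes it was 0.31. The control libraries of the same batch had a correlation of 0.44 across 76 members and 0.21 across 8796 other genes. For the Cre change minus the control change it was -0.02 across 82 members, so the relation to length was not shown to belong to the tagged ribosomes. Genes of one complex are not independent, so no p is given. The share of non-member counts in short coding genes moved with the result: it was 9.14 to 14.0% in the central axon Cre libraries and 16.4 to 21.4% in the somas, and its part in the result was not tested.

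**Figure D3:**
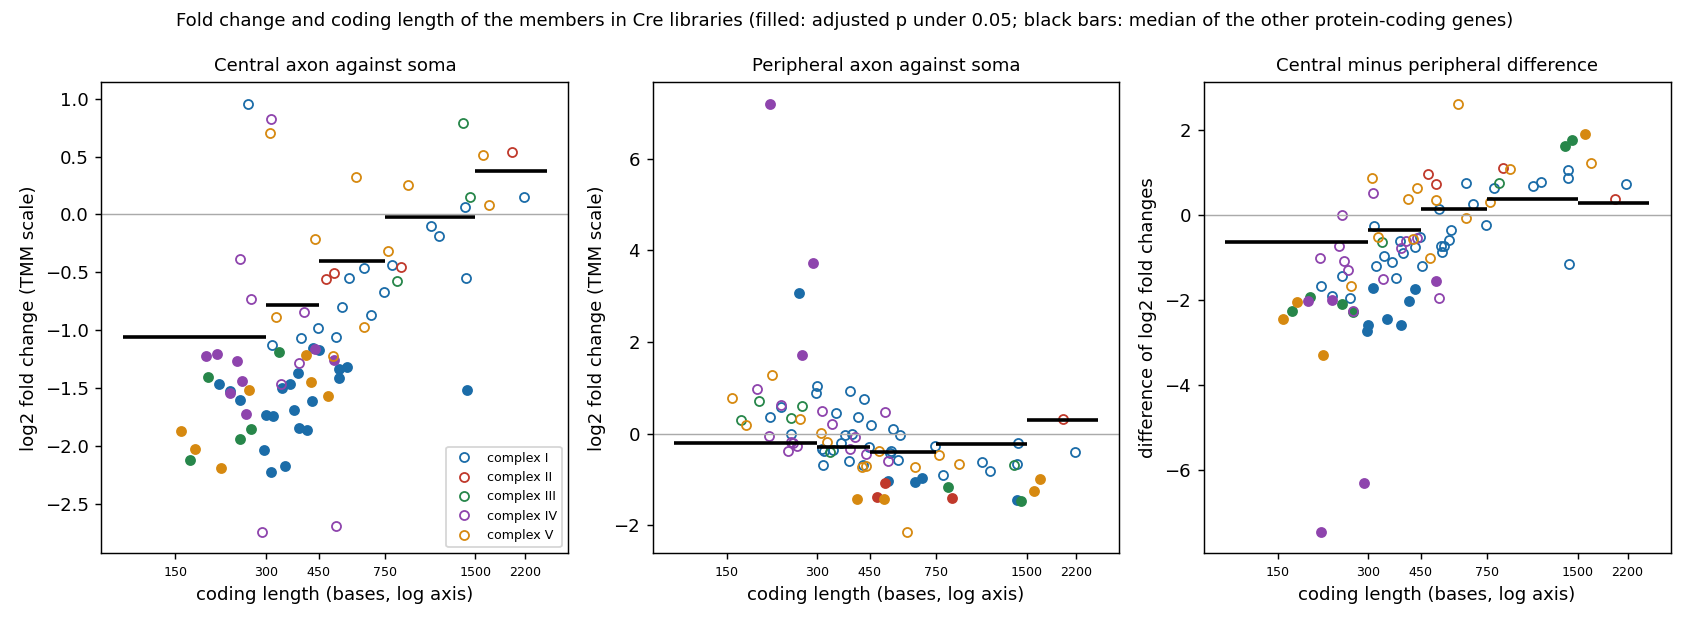
Log2 fold change of each member against coding length in bases (log axis) for central axon against soma, peripheral axon against soma, and the difference between them, in Cre libraries; filled points passed an adjusted p of 0.05, and black bars give the median of other protein-coding genes of each length class. Short members lie lowest in central axons (median -1.46) and long members lowest in peripheral axons (median -0.75).

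In peripheral axons the summed level of the chain overlapped that in somas of the same batch, and complex II was lower. The summed CPM of all members was 22395, 37705, 58364 and 27838 in the 4 peripheral axon Cre libraries and 34030, 35406, 44757 and 33918 in the 4 Cre somas. The axon libraries spread around the soma range, with library 3 above it and libraries 1 and 4 below. Complex II had 814, 638, 636 and 823 CPM in the axons and 1464, 932, 1523 and 1370 in the somas. All axon values were lower, with a ratio of the means of 0.551. The ratios of the other complexes were 1.02 for complex I, 1.16 for complex III, 1.17 for complex IV and 0.811 for complex V, all with overlap. As a share of the chain's counts, complex V took 23.1 to 26.5% in the axons and 27.9 to 31.4% in the somas, and complex IV 23.4 to 27.2% in the axons and at most 23.1% in the somas, neither with overlap.

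In the fit of all genes, 13 of 83 members fell in peripheral axons against somas and 4 rose, where 12.5% of all genes tested were called lower, 18.7% higher and 31.2% in either direction (edgeR's test, adjusted p under 0.05). The median log2 fold change was -0.26 over the members and -0.03 over all genes tested. The share of members lower was close to that of all genes. By complex, 4 of 37 members of complex I fell (median -0.29), 3 of 4 of complex II (median -1.23), 2 of 8 of complex III (median -0.04), 0 of 17 of complex IV (median -0.04) and 4 of 17 of complex V (median -0.65). Leaving out one library at a time gave 8 to 18 lower and 3 to 8 higher, and 8 lower and 3 higher without soma Cre library 7. The 3 calls of complex II were made in all 8 of these fits, while complex I had 1 to 7 and complex V 2 to 5. A fit over all 4 groups of the batch gave 10 lower and 0 higher.

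Core and catalytic subunits were among the members that fell. Ndufv1 (ENSMUSG00000037916, chr19:4007384-4012806, minus strand) had 137, 245, 195 and 226 CPM in the peripheral axons and 548, 428, 456 and 498 in the somas. The soma values lay close together and above all axon values, and it fell by 1.44 (SE 0.28, edgeR's adjusted p = 0.00283). The core subunits Ndufs7 and Ndufs8 and the accessory subunit Ndufa8 fell as well, with log2 fold changes of -0.96, -1.06 and -1.03. Sdhb had 360, 237, 304 and 280 CPM in the axons and 733, 421, 867 and 680 in the somas, without overlap, and fell by 1.41 (SE 0.30, adjusted p = 0.00482). Sdhd, a membrane anchor, had 136, 126, 113 and 232 CPM against 331, 242, 421 and 357 and fell by 1.38 (SE 0.30, adjusted p = 0.00564). Its highest axon value came close to the lowest soma value without crossing it. Sdhc, the other anchor, fell by 1.07 (SE 0.28, adjusted p = 0.0124), while Sdha had 250, 156, 126 and 200 CPM against 188, 83.0, 106 and 126 and a log2 fold change of 0.33 (SE 0.28, adjusted p = 0.392).

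Uqcrc1 (ENSMUSG00000025651, chr9:108936633-108949623, plus strand) had 383, 295, 125 and 243 CPM in the peripheral axons and 721, 431, 592 and 713 in the somas. It fell by 1.46 (SE 0.33, edgeR's adjusted p = 0.00627) without overlap, and the Rieske protein Uqcrfs1 fell by 1.16 (SE 0.27, adjusted p = 0.00754). Atp5b (ENSMUSG00000025393, chr10:128083273-128090391, plus strand) had 825, 678, 649 and 602 CPM against 1739, 831, 1520 and 1623. Soma library 6 came close to the axon values, all of which were lower, and Atp5b fell by 1.26 (SE 0.31, adjusted p = 0.0107). Atp5d, the delta subunit, fell by 1.41 (SE 0.32, adjusted p = 0.00676), Atp5g1 by 1.43 (SE 0.40) and Atp5a1 by 0.99 (SE 0.30). In all, 13 of 83 members were lower in every axon library, where 16.0% of all genes were, and 5 were higher in every one, where 20.7% of all genes were.

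By length, 1 of 49 short members fell and 4 rose in peripheral axons (median 0.02), 6 of 18 medium members fell (median -0.58) and 6 of 16 long members fell (median -0.75). Leaving out one library gave 0 to 4 short, 3 to 7 medium and 5 to 9 long members lower. Other long protein-coding genes had a median of 0.08, with 1193 of 10679 lower, and other short genes a median of -0.26. The Spearman correlation of fold change with coding length was -0.68 across 83 members and 0.19 across 13287 other protein-coding genes. By length class the other genes had medians of -0.21, -0.30, -0.39 and -0.22 in the 4 classes up to 300, 450, 750 and 1500 bases, and 0.29 above 1500, a class with 4 of the members. The members had 0.59, -0.29, -0.58, -0.75 and -0.70 in the same classes. Summed over long members, the peripheral axon Cre libraries had 4819, 4475, 4824 and 4121 CPM and the somas 8566, 5217, 8271 and 7901, without overlap. Short members had 12812, 26157, 45641 and 18334 CPM in the axons and 18897, 22725, 27215 and 18968 in the somas, which overlap widely. Markers of other cells of the nerve moved with these results: the summed CPM of 10 Schwann cell markers was 11005 to 29051 in the peripheral axon Cre libraries, 8911 to 16274 in their controls and 662 to 824 in the Cre somas. Their part in the result was not tested.

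The 4 members that rose in peripheral axons are paralogues known for restricted expression, 3 of them the muscle forms of complex IV subunits. Cox6a2 (ENSMUSG00000030785, chr7:128205435-128206387, minus strand) had 8.27, 33.1, 12.4 and 14.7 CPM in the peripheral axons and 1.81, 0.643, 1.68 and 0.458 in the somas. All axon values were higher, and it rose by 3.72 on the log2 scale (SE 0.73, edgeR's adjusted p = 0.00309). Cox8b (ENSMUSG00000025488, chr7:140898945-140900446, minus strand) had 17, 478, 105 and 63 counts in the axons, or 4.13, 31.7, 25.6 and 10.9 CPM, and 0, 3, 4 and 0 counts in the somas. Since the somas lay at or next to the floor of 3 counts, its fitted log2 fold change of 7.20 (SE 1.15, adjusted p = 0.000908) depends on the prior count of the fit and bounds nothing. Cox7a1 had 7.54, 9.43, 12.9 and 6.24 CPM against 2.06, 3.15, 2.39 and 2.12, without overlap, and rose by 1.72 (SE 0.60, adjusted p = 0.0475). That call held in 1 of the 8 fits that each leave out a library. Ndufa4l2, a paralogue of Ndufa4 known to be induced in low oxygen, had 16.8, 6.51, 2.68 and 13.5 CPM against 0.999, 1.54, 0.611 and 0.744 and rose by 3.08 (SE 0.74, adjusted p = 0.00867), again without overlap.

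Skeletal muscle transcripts were high in the same libraries, and all 4 paralogues were also detected in peripheral axon controls. The summed CPM of 10 skeletal muscle markers was 2104, 4459, 1028 and 1119 in the peripheral axon Cre libraries, 4464, 32242 and 1287 in their controls, and 18 to 107 in the Cre somas of batch 2. All 8 of the muscle markers that could be tested rose in the same comparison (18.7% of all genes). In the peripheral axon controls Cox6a2 had 15.4, 252 and 5.50 CPM, Cox8b 10.1, 52.3 and 0, and Cox7a1 0, 37.0 and 0. The control with the highest muscle sum was the highest for all 3 genes. Ndufa4l2 had 0, 6.01 and 21.8 CPM in these controls, highest where the muscle sum was lowest. Among the 4 Cre libraries Cox6a2 and Cox8b were highest in library 2, which had the highest muscle sum, but Cox7a1 was highest in library 3, which had the lowest. In the control somas of batch 1, library 1 had a muscle sum of 10722 CPM and a Cox6a2 level of 307, with Cox8b and Cox7a1 at 0. The part of the muscle transcripts in the 3 rises was not tested.

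**Figure D4:**
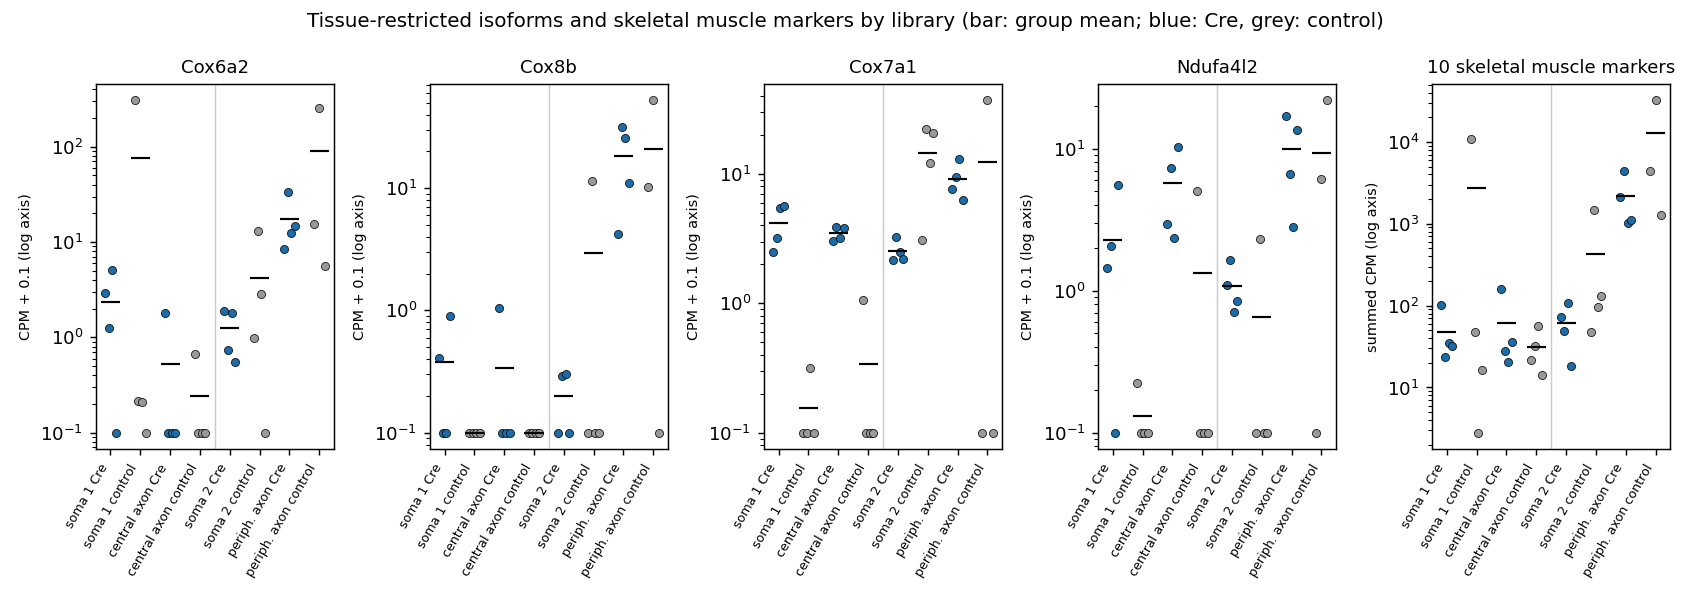
CPM plus 0.1 of Cox6a2, Cox8b, Cox7a1 and Ndufa4l2, and summed CPM of 10 skeletal muscle markers, by library on log axes; each dot is a library, each bar a group mean, blue is Cre and grey is control. The peripheral axon libraries of both genotypes and 1 control soma library of each batch hold the high muscle sums, and peripheral axon control library 2 has the highest Cox6a2, Cox8b and Cox7a1 of that group.

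The test of the difference between the axon kinds, each taken relative to the Cre somas of its own batch, found 19 of 83 members lower on the central side and 3 higher, where 5.88% of all genes tested were called lower, 7.20% higher and 13.1% in either direction (edgeR's test, adjusted p under 0.05). The medians were -0.87 for complex I, 0.85 for complex II, -1.28 for complex III, -1.30 for complex IV and 0.31 for complex V. The 3 higher members are large subunits of complexes III and V: Atp5b at 1.92 (SE 0.52, adjusted p = 0.0201), Uqcrc1 at 1.77 (SE 0.56, adjusted p = 0.0432) and Uqcrc2 at 1.64 (SE 0.53, adjusted p = 0.0452). The lower members with the smallest p were Ndufa3 at -2.59 (SE 0.62, adjusted p = 0.0109), Atp5k at -3.30 (SE 0.79, adjusted p = 0.0111), Uqcrh at -2.29 (SE 0.57, adjusted p = 0.013) and Ndufa2 at -2.74 (SE 0.70, adjusted p = 0.0146). Cox6a2 and Cox8b were also lower. Of 49 short members 18 were lower (median -1.49), and of 16 long members 3 were higher and 15 had positive values (median 0.83). The Spearman correlation with coding length was 0.74 across the 83 members and 0.03 across 14113 other protein-coding genes.

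Both the axons and the somas enter this difference. Short members summed to 13954 ± 4659 CPM in the central and 25736 ± 14355 in the peripheral axon Cre libraries (SD, n = 4), and to 31898 ± 5987 and 21951 ± 3939 in the Cre somas of batch 1 and batch 2. Long members summed to 8146 ± 471 CPM in the central and 4560 ± 335 in the peripheral axons, against 6444 ± 1899 and 7489 ± 1539 in the somas. Of 83 members, 22 were lower in every Cre soma library of batch 2 than in every one of batch 1 (3.15% of all genes), so batch and tissue enter the comparison of the axon kinds together and cannot be told apart. Leaving out one library at a time gave 8 to 25 members lower and 0 to 4 higher, among them 8 to 24 short members lower and 0 to 3 long members higher. The total was 10 without central axon Cre library 3, 12 without library 4, 13 without soma Cre library 3 or 4 of batch 1, 12 without peripheral axon Cre library 3 and 9 without soma Cre library 5 or 8 of batch 2.

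Soma Cre library 4 of batch 1 stood apart in several long members, though not in all. In CPM, Ndufs1 was highest in this library, and Sdha lay within the range of the other 3 Cre somas. Library 4 had 160 CPM of Sdhb, where the other 3 had 780 to 793, and 342 CPM of Atp5b and 172 of Uqcrc1, each the lowest of its group. Its ratio of long to short members was 0.102, against 0.182 to 0.291 in the other 3 Cre somas and 0.384 to 0.905 in the central axons. Without it, edgeR's test called more members in central axons, 51 lower and 0 higher.

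No member passed the test between Cre and control libraries in any compartment. By edgeR's test 0 of 79 members passed in central axons (0.0141% of all genes), and for 6 the p before adjustment lay under 0.05 (4.82% of all genes). In peripheral axons 0 of 81 passed (0% of all genes) and 7 lay under 0.05 before adjustment (3.68%). In the somas of batch 1, 0 of 79 passed (4.42%), with 1 higher (8.44%) and 3 lower (6.57%) at that unadjusted level. In those of batch 2, 0 of 82 passed (0%) and 19 lay under 0.05 before adjustment (16.4%). DESeq2 called 0 members in central axons (1.53% of all genes) and 0 in peripheral axons (0.193%). It called 3 in the somas of batch 1 (Cox4i2 and Cox7a1 higher, Ndufb5 lower, against 16.1% of all genes) and 4 in those of batch 2 (Cox6a1, Atp5d and Atp5g1 higher, Cox7a1 lower, against 7.60%).

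The chain was also present in the control precipitates, and the summed level overlapped that with Cre in each compartment. The summed CPM of all members was 27644 ± 5221 with Cre and 24205 ± 4418 without in central axons (n = 4 each), with overlap. In peripheral axons it was 36575 ± 15848 with Cre (n = 4) and 22081 ± 8564 without (n = 3), a ratio of 1.66, and the short members had a ratio of 2.15, both with overlap. In somas it was 46883 ± 6030 with Cre and 30317 ± 12576 without in batch 1, and 37028 ± 5197 and 32949 ± 4996 in batch 2 (n = 4 each). Atp5b had 2445, 1493, 2600 and 1551 CPM in the central axon controls, a range that holds all 4 Cre values. Ndufb3 had 101, 50.8, 119 and 144 CPM in them, of which the highest lay above 2 of the Cre values. In peripheral axons Atp5b was lower in every Cre library than in every control (825, 678, 649 and 602 against 1212, 1292 and 1054 CPM), 1 member where 2.86% of all genes were, and 7 members were higher in every one (3.58% of all genes). In central axons 6 members were higher in every Cre library (6.82%) and 0 lower (1.29%). Short members in peripheral axons had a median log2 fold change of 1.12 with Cre against control, 45 of 48 positive, and long members -0.13.

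In somas of batch 2 the members' median was 0.40, with 8 members higher in every Cre library (4.29% of all genes) and 1 lower, Ndufs1 (7.58%). In somas of batch 1 the median was -2.56 with TMM scaling and 0.59 with library size alone, so no direction can be given. Without control library 3, edgeR's test called 8 of 81 members higher there and the median was 0.88. In that fit 24.3% of all genes were called in either direction. Of the members, 12 were higher in every Cre soma of batch 1 (28.0% of all genes) and 1 lower, Ndufb5 (0.429%).

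The axon to soma comparison in controls called no member in either batch. In the control libraries of batch 1, 0 of 76 members passed (0% of all genes) and 12 had an unadjusted p under 0.05 (12.4%). In those of batch 2, 0 of 81 passed (0.0802%) and 4 had an unadjusted p under 0.05 (9.78%). The chain's sum in control central axons was 0.798 of that in control somas, with overlap, and in control peripheral axons 0.670, without overlap. A fit over all 4 groups of batch 1 called 10 of 82 members lower in the control central axons, where it called 25.1% of all genes in either direction. The test of whether the axon to soma change differed between Cre and control called 0 of 82 members on the central side (0% of all genes), where 0 had an unadjusted p under 0.05 (20.4%). On the peripheral side it called 0 of 81 (0.00636%), where 3 had one (9.74%). The changes of the members in Cre axons were not shown to differ from those in the control precipitates, and a p that misses the threshold does not show that they were alike.

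A few members split by count table, which was not particular to the members: other genes did so at a similar or higher share. Cox7c averaged 31.2 ± 22.8 CPM over the 16 libraries of batch 1 and 346 ± 201 over the 15 of batch 2, with every batch 2 library higher. Atp5g2 averaged 1.81 ± 1.57 and 22.7 ± 7.39 CPM, also without overlap. These were the 2 of 83 members without overlap between the batches in either direction, as were 1.90% of all genes. Among the Cre somas alone, which share tissue and genotype, 4 members were higher in every batch 2 library (12.9% of all genes): Cox7c by 6.50 times, Atp5g1 by 6.38 times, Atp5g2 by 13.4 times and Atp5l by 26.1 times. Ndufb4 went the other way, with 98.6 ± 36.6 CPM in the Cre somas of batch 1 and 9.50 ± 3.69 in those of batch 2 (n = 4 each). With 1 CPM added, 5 of 83 members differed between the Cre somas of the batches by more than 2 on the log2 scale. So did 840 of 18259 genes with 10 counts in at least 4 libraries.

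Adding the counts of the matching pseudogenes left these ratios of similar size. With them, the ratio of batch 2 to batch 1 over all libraries was 9.51 for Cox7c, 6.00 for Atp5g1, 9.11 for Atp5g2, 4.11 for Atp5l and 0.261 for Ndufb4. Without them the ratios were 11.1, 6.35, 12.5, 4.29 and 0.261. Levels of these 5 members are therefore uncertain between tables, and their axon to soma changes above are all within a table. In central axons Cox7c fell by 1.22 (SE 0.36, edgeR's adjusted p = 0.0383) and Atp5g1 by 1.21 (SE 0.36, adjusted p = 0.042). Some members also share exon bases with neighbours: Ndufb6 39.0%, Atp5o 35.6% and Ndufa13 30.0% with a gene on the other strand, and Ndufb9 19.5% with one on the same strand. Whether the counting used strand is not given in the sources used here.

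**Figure D5:**
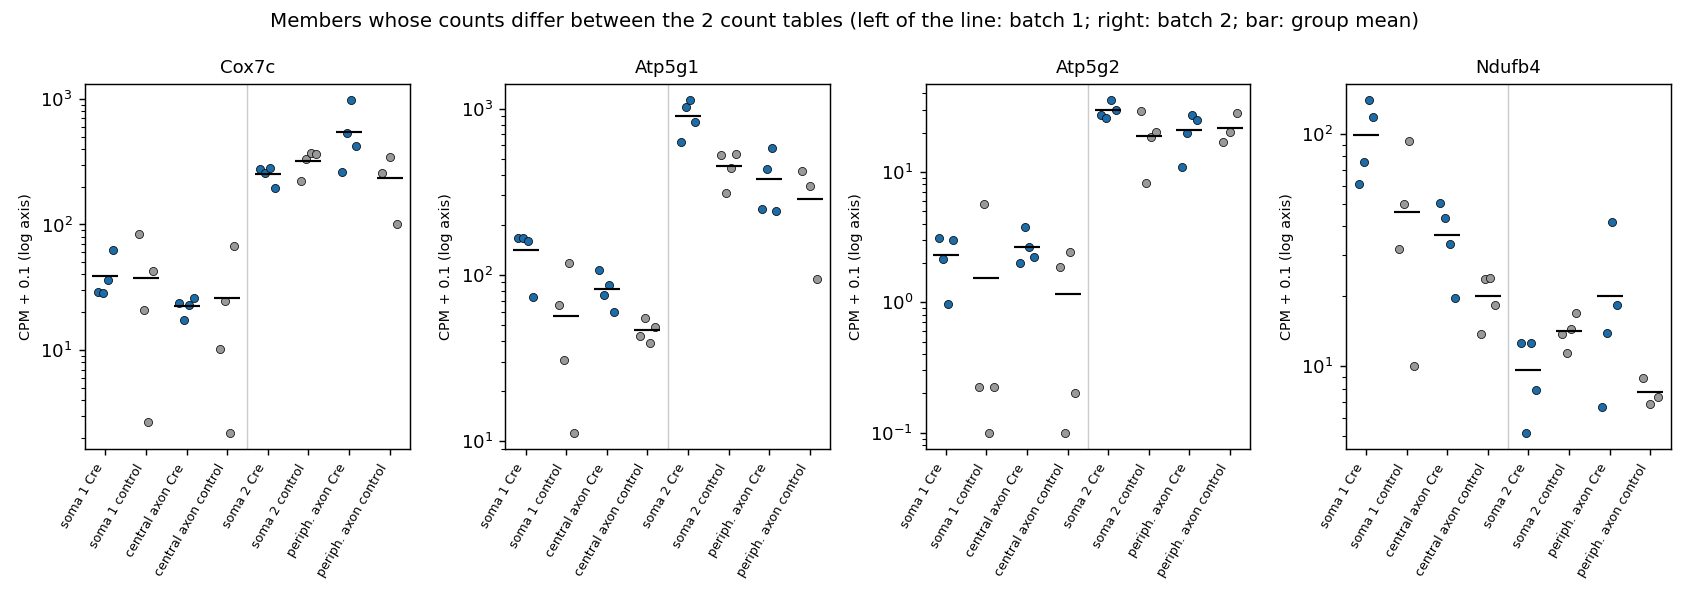
CPM plus 0.1 by library on log axes for members whose counts differ between the 2 count tables; groups left of the vertical line are in batch 1 and right of it in batch 2, each dot is a library and each bar a group mean. Cox7c and Atp5g2 are higher in all batch 2 libraries, and Ndufb4 is lower there in the Cre somas, while its control somas overlap.

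Other genes of the pathway were read from the same fits. Of all genes tested, 5.11% were called lower and 8.63% higher in central axons, and 12.5% lower and 18.7% higher in peripheral axons. The mitochondria-encoded subunits, transcribed inside the organelle and not translated on tagged ribosomes, had 1 of 7 tested higher in central axons (median 1.41) and 8 of 8 higher in peripheral axons (median 4.42). Their summed level was 1777 to 10808 CPM in the peripheral axon Cre libraries, 2682 to 13108 in the controls and 172 to 464 in the Cre somas of batch 2. Enzymes of the tricarboxylic acid cycle had 0 of 16 called in central axons (median 0.21) and 8 of 16 lower in peripheral axons (median -0.85). The difference between the axon kinds was positive for 15 of the 16 and called for 6 (13.1% of all genes in either direction). Assembly factors of complex I had 2 of 17 lower in central and 5 of 17 lower in peripheral axons, and those of complex IV 5 of 19 and 3 of 20. Import genes had 5 of 16 lower in central axons, and 3 lower and 1 higher in peripheral axons. Regulators of mitochondrial biogenesis had 1 of 10 higher in central and 0 of 10 called in peripheral axons by edgeR's test. The 6 chain components outside the symbol rule summed to 1654 to 2567 CPM in the central axon Cre libraries and 2704 to 4836 in the Cre somas of batch 1. In batch 2 they summed to 1759 to 6339 CPM in the peripheral axon Cre libraries and 3078 to 4598 in the Cre somas.

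Markers of the neurons and of other cells in the samples gave the setting of these values. The shares of all genes called were again 5.11% lower and 8.63% higher in central axons, and 12.5% and 18.7% in peripheral axons. Of 10 nociceptor markers, 5 were lower in central and 8 in peripheral axons than in somas, and of 10 general neuronal markers 1 was higher and 1 lower in central axons and 7 lower in peripheral axons. In central axons 7 of 8 spinal neuron markers and 5 of 6 astrocyte markers were higher than in somas. In peripheral axons 9 of 10 Schwann cell, 6 of 6 fibroblast and 6 of 6 endothelial and mural markers were higher. Their part in the members' changes was not tested.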

How the data were processed

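Raw gene counts of 31 libraries were deposited by the authors as 2 tables, 1 per batch. Per the submitters' processing notes reads were aligned with STAR 2.7.2b to mm10, and per the labels libraries were made with the SMART-Seq v4 kit from less than 100 pg (axons) or 1 ng (somas) of RNA. The counting program, strand, multi-mapping and duplicate handling are not given in the sources used here, and a kit of this kind amplifies RNA without molecular identifiers. Counts were tested as deposited with edgeR 4.0.16 in R 4.3.3 (filterByExpr, minimum count 10 and total 15; TMM; quasi-likelihood test; Benjamini-Hochberg over all genes tested). Each axon to soma fit took the 8 libraries compared, and the difference between axon kinds the 16 Cre libraries, with batch inside the groups. DESeq2 1.42.0, other scalings, other sample sets, a replicate block and leaving out each library were the alternatives. On counts simulated with log2 changes of 2 and a dispersion of 0.15, the fit recovered 89.80% of 196 changed genes (central axon against soma, 7 false calls). For the peripheral comparison it recovered 86.29% of 197 (10 false calls). The data spread more widely: the biological coefficient of variation, whose square is the dispersion, was 0.589 in the central and 0.541 in the peripheral fit. Recovery at that spread was not simulated and would be lower. Symbols, coordinates and lengths are from GENCODE M21 on GRCm38. Named genes are the 4 with the smallest adjusted p per direction, paralogue sets, the Sdh and catalytic subunits, Ndufb4, Cox4i1 and extremes of TPM per complex; others were chosen after their values were seen. Members and lists were chosen with earlier results of these data known. The values of 1 member are not reported here.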

Additional observations from a re-analysis of the deposited data

Results flagged for a closer look

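Single libraries stood apart from the other 3 of their group, by Dixon's criterion for groups of 4, in 17 of 161 groups of values examined. Of these 17, 10 came from 14 groups in which at least 3 libraries held 3 counts or fewer, where the criterion is met by almost any counts in the remaining library and says nothing of chance. The other 7 came from 147 groups, where chance alone flags about 1 in 20. Control soma library 3 of batch 1 was highest for complex III (6255 CPM summed), Ndufb3 (739 CPM) and Uqcr11 (1530 CPM). Soma Cre library 4 of batch 1 was lowest for Sdhb (160 CPM) and Atp5g1 (73.7 CPM), and soma Cre library 3 was highest for complex V (13613 CPM summed). Control soma library 8 of batch 2 was highest for complex IV (8609 CPM summed). The 10 low-count cases were all in paralogues. Control soma library 1 of batch 1 was highest for Cox6a2 (307 CPM) and Ndufa4l2 (0.123 CPM, 1 count), control soma library 3 of that batch for Cox7a1 (0.216 CPM, 2 counts), and control soma library 6 of batch 2 for Cox8b (11.3 CPM) and Ndufa4l2 (2.22 CPM). Central axon Cre library 1 was highest for Cox6a2 (1.70 CPM) and Cox8b (0.943 CPM), and central axon control library 1 for Cox6a2 (0.566 CPM), Cox7a1 (0.970 CPM) and Ndufa4l2 (4.93 CPM).

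The axon to soma change differed between central and peripheral axons, by the test of the difference itself, for 22 members. The log2 differences of the named ones were -2.59 for Ndufa3, -3.30 for Atp5k, -2.29 for Uqcrh, -2.74 for Ndufa2, 1.92 for Atp5b, 1.77 for Uqcrc1 and 1.64 for Uqcrc2.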

How the results depend on the processing

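The count of members called in central axons against somas was 41, and 27 with library size alone, 0 with all 4 groups of the batch fitted together, 42 with RLE scaling or no low-count filter, 50 with DESeq2 and 15 to 51 when leaving out 1 library. In peripheral axons it was 17, and 10 with all 4 groups, and 11 to 25 when leaving out 1 library. The difference between axon kinds gave 22, and 9 to 27 when leaving out 1 library. Cre against control gave 0 in somas of batch 1, but 2 with library size alone (19.2% of all genes) and 3 with DESeq2 (16.1%). It gave 1 with all 4 groups (13.8%) and 0 to 8 when leaving out 1 library, where the fit with 8 called 24.3% of all genes. In somas of batch 2 it gave 0, 4 with DESeq2 (7.60%) and 0 to 7 when leaving out 1 library, where the fit with 7 called 11.7% of all genes. Control axon against soma gave 0, but 10 in batch 1 with all 4 groups (25.1% of all genes) and 1 in batch 2 without the filter (1.13%). With TPM per longest transcript, the median of complex II in Cre somas of batch 2 was 310 (397 by exon length), and that of complex V was 666 in Cre somas of batch 1 (447) and 665 in those of batch 2 (494). No direction reversed among the named members tried in the axon to soma comparisons of Cre libraries and in the difference between axon kinds. Medians over all members did reverse elsewhere. In somas of batch 1, Cre against control, the median was -2.56 and became 0.59 with library size alone. For the central axon to soma change, Cre minus control, it was 0.17 and became -0.27 with library size alone. Apart from fits that changed only the scaling, the fits that called fewer members had fewer libraries or shared the spread with the controls. Some fits with 1 library left out called more members, and the cause was not tested. Replicate numbers shared between central axons and somas mark no stated animal, and same-numbered libraries did not all deviate together. With a replicate block 44 members were called there and 0 in the other comparisons that allow one. No paired analysis was possible because numbers are not shared for peripheral axons against somas, and thus for the difference between axon kinds. Depth limits Cox8b, Cox4i2 and Cox8c, which lie near or at 0 in most libraries.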
